A study of Mus musculus with 5 samples.

Results

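The alpha and beta tubulin isotypes measured here are Tuba1a, Tuba4a, Tubb2a, Tubb2b, Tubb3, Tubb4a and Tubb5, read by 11 of the 45037 non-control probe sets on a mouse expression array. A probe set belonged to them if its annotation gave one of these symbols and no other. Tuba1b, the eighth gene looked for, had no probe set of its own, so 7 of 8 genes were measured, against 18193 genes over the whole array. The study took RNA from mouse brain, let it bind in vitro to the protein MA-Brent-1, an mRNA export factor of the REF/Aly family, and hybridised the eluted RNA to arrays. In 2 samples the protein had been deiminated, in 2 it had not, and 1 sample was brain RNA that went through no binding, called input here. Deimination is the enzymatic change of arginine to citrulline within a protein. All 5 samples carry the source label brain, and strain, age and sex are not given in the sources used here. Titles name the protein MA-Brent-1 for deiminated replicate 1 and non-deiminated replicate 2, and REFP2 for deiminated replicate 2 and non-deiminated replicate 1. Only non-deiminated replicate 2 is titled a biological repeat, so the p-values rest on variation among these samples that may be technical only.

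Alpha and beta tubulin form the heterodimer from which microtubules are built, and vertebrates carry several genes for each. Tubb5 and Tuba1b are made in most cell types. Tubb3 is largely confined to neurons and serves as a neuronal marker, while Tuba1a, Tubb2a and Tubb2b are abundant in developing and adult neurons. Tubb4a is abundant in brain, above all in myelinating oligodendrocytes, and Tuba4a is found in brain among other tissues. Cells also regulate tubulin mRNA by its stability, which falls when free tubulin dimers accumulate.

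The isotype genes include close copies in the genome. In the RefSeq gene table Tuba1b, Tuba1a and Tuba1c lie next to each other on chromosome 15, and Tubb2a and Tubb2b next to each other on chromosome 13. By Affymetrix's naming, probe sets ending in _x_at or _s_at hold probes that also match other transcripts, so Tuba1a 1418884_x_at and Tubb2a 1427347_s_at may read related tubulin RNAs as well. The transcripts behind such a signal cannot be told apart on this array.

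Signals are linear intensities that the authors scaled to the same trimmed mean, 150, on every array. Over all probe sets the median was 29.9 and 37.6 on deiminated arrays, 30.5 and 41.5 on non-deiminated arrays and 102.3 for input. The 18 hybridisation controls, transcripts of bacteria and a phage added at fixed amounts, had mean log2 signals of 10.59 and 12.60 on deiminated arrays, 10.08 and 13.04 on non-deiminated arrays and 17.04 in input. The part that the amount of labelled RNA on each array has in these values was not tested, and every difference with input rests on that one array. Signs of RNA quality differed between bound and input arrays too, in opposite directions for actin and Gapdh. The signal at the 3′ end of actin over that at its 5′ end was 51.7 and 45.2 on deiminated arrays, 29.8 and 55.6 on non-deiminated arrays and 234.4 in input, while the same ratio for Gapdh was 21.9 and 31.9 on deiminated arrays, 31.7 and 17.4 on non-deiminated arrays and 2.71 in input. The actin ratio in input rests on a 5′ signal of 16.7, far under that array's median of 102.3. What part these ratios have in the differences with input was not tested.

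The brain label was checked against markers. The summed signal of 7 neuronal markers was 17560 and 18860 on deiminated arrays, 16930 and 18800 on non-deiminated arrays and 4951 in input, and that of 5 skeletal muscle markers was 62 to 87 on bound arrays and 510 on the input array. Most of that 510 was Ckm, at 377, which lay under the filter on mean signal described below. The only muscle marker that passed it, Acta1, read 8.27 to 61.0 on bound arrays and 17.9 on the input array. The 5 astrocyte markers ranged from 15930 to 20690 on bound arrays, against 5976 on the input array, and the 5 microglia markers from 3405 to 4290, against 1954. Most of the microglia sum was Csf1r, at 2948 to 3909 on bound arrays and 1508 on the input array. The other microglia markers did not share its direction. C1qa was above input on every bound array, Aif1 and Trem2 were below it on every bound array, and Cx3cr1 lay on both sides. The 4 liver markers measured summed to 10670 to 40640 on bound arrays, against 8637 on the input array, nearly all of it from Ttr, which brain choroid plexus also makes. The defining liver marker Alb read 16.4 to 32.5 on bound arrays, against 283.9 on the input array.

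Differences are on the scale of log2(signal + 4.18). A probe set is called when its adjusted p from limma, over all 27022 probe sets kept by a filter on mean signal, was under 0.05. All 11 tubulin probe sets passed that filter, the dimmest of them, Tuba4a 1417375_at, with a mean of 5.67 log2 against a limit of 4.89. Errors after ± are limma's standard errors, and intervals cover 95%.

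The neuron-specific isotype Tubb3 was far higher in bound RNA than in input. Its probe set 1415978_at read 398 and 579 on deiminated arrays, 361 and 466 on non-deiminated arrays and 8.56 in input. All 4 bound arrays were above the input array, and the 2 bound groups overlapped. Tubb3 was higher by 5.25 ± 0.44 log2 in deiminated-bound RNA (adjusted p = 3.02e-06) and by 5.02 ± 0.44 in non-deiminated-bound RNA (adjusted p = 4.23e-06). That placed it at the 99.4 and 99.2 percentiles of all kept probe sets. Its input signal lies close to the added constant of 4.18, so the size depends on that constant. Over all alternatives the difference ran from 4.30 to 7.79 for deiminated and from 4.08 to 7.60 for non-deiminated. The low ends came from a larger constant. The high ends came from scaling to the hybridisation controls, which moved the median of all kept probe sets to 4.32 and 4.38. The call was lost when the arrays were scaled to their hybridisation controls (adjusted p = 0.187 and 0.182), where 0 of all 27022 kept probe sets were called.

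Tubb5, the general beta isotype, rose as well, by less, and both of its probe sets gave nearly the same value. Probe set 1416256_a_at read 2438 and 2806 on deiminated arrays, 2355 and 3021 on non-deiminated arrays and 662 in input. Probe set 1455719_at read 267 and 414 on deiminated arrays, 249 and 360 on non-deiminated arrays and 74.7 in input. In both, every bound array exceeded the input array and the bound groups overlapped. The differences with input for 1416256_a_at were 1.97 ± 0.40 for deiminated (adjusted p = 0.00201) and 2.0 ± 0.40 for non-deiminated (adjusted p = 0.00191). For 1455719_at they were 2.09 ± 0.45 and 1.94 ± 0.45 (adjusted p = 0.00275 and 0.00439). Cyclic loess took the calls of 1416256_a_at away, at 0.48 and 0.56, and kept those of 1455719_at, at 1.48 and 1.32.

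Tubb2a, a beta isotype abundant in neurons, was called higher in 1 of its 2 probe sets. Probe set 1427347_s_at read 7136 and 10689 on deiminated arrays, 6149 and 14072 on non-deiminated arrays and 2212 in input, with every bound array above input. It rose by 1.98 ± 0.59 in deiminated-bound RNA (adjusted p = 0.0152) and by 2.07 ± 0.59 in non-deiminated-bound RNA (adjusted p = 0.0128). The deiminated call was lost without deiminated replicate 1 or 2, at 2.27 and 1.69, each time leaving 1 deiminated array, and both calls were lost after cyclic loess (adjusted p = 0.517 and 0.328). The dimmer 1427838_at read 205 and 306 on deiminated arrays, 121 and 445 on non-deiminated arrays and 134 in input, so non-deiminated replicate 1 lay below input. Its differences of 0.89 ± 0.62 and 0.78 ± 0.62 were not called (adjusted p = 0.243 and 0.303). It was called higher after quantile normalisation, at 2.11 and 2.03, after median centring, at 2.38 and 2.20, and for non-deiminated without replicate 1 of that group, at 1.71.

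Its chromosomal neighbour Tubb2b, the isotype of growing neurons, was not called. Tubb2b 1452679_at read 1986 and 2523 on deiminated arrays, 1977 and 3314 on non-deiminated arrays and 1660 in input. All 4 bound arrays lay above input, yet by little, with differences of 0.43 ± 0.44 (-0.53 to 1.39) and 0.62 ± 0.44 (-0.33 to 1.58) and adjusted p = 0.426 and 0.25. Median centring made both called higher, at 1.93 and 2.04, as did leaving out non-deiminated replicate 1 for non-deiminated, at 0.995. Cyclic loess made the deiminated difference called lower, at -1.08.

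Tubb4a, the beta isotype of oligodendrocytes and neurons, was the one member called lower. Probe set 1423221_at read 212 and 174 on deiminated arrays, 153 and 373 on non-deiminated arrays and 628 in input, so each bound array was below input. The differences were -1.69 ± 0.50 for deiminated (adjusted p = 0.0149) and -1.38 ± 0.50 for non-deiminated (adjusted p = 0.0372). Both calls were lost when the variance was modelled without a trend on signal, the deiminated one after median centring, and the non-deiminated one without non-deiminated replicate 1, at -0.74. The sign turned with scaling to the hybridisation controls, to 3.57 and 3.91.

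Neither alpha isotype was called. Tuba1a 1418884_x_at read 11426 and 24917 on deiminated arrays, 9800 and 31520 on non-deiminated arrays and 14571 in input. Within each bound group one array lay below input and one above it, so the groups overlapped completely. The differences were 0.21 ± 0.80 (-1.52 to 1.95) and 0.27 ± 0.80 (-1.46 to 2.01), with adjusted p = 0.838 and 0.792. Median centring made both called higher, at 1.71 and 1.69, while cyclic loess made the deiminated difference called lower, at -1.45. The direction of Tuba1a thus depends on the scaling.

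The 3 probe sets of Tuba4a did not share a direction. The brightest, 1417373_a_at, read 10787 and 22145 on deiminated arrays, 9198 and 19228 on non-deiminated arrays and 31222 in input, all bound arrays lower. Probe set 1417374_at read 1549 and 1634 on deiminated arrays, 1709 and 1256 on non-deiminated arrays and 1036 in input, all bound arrays higher. Probe set 1417375_at read 63.1 and 86.1 on deiminated arrays, 64.0 and 21.4 on non-deiminated arrays and 27.8 in input, with non-deiminated replicate 2 below input and the others above. Their differences with input were -1.01 ± 0.73, 0.62 ± 0.39 and 1.28 ± 0.79 for deiminated and -1.23 ± 0.73, 0.50 ± 0.39 and 0.38 ± 0.79 for non-deiminated. None passed (adjusted p = 0.172 to 0.701), and no direction is given for Tuba4a. Cyclic loess made 1417373_a_at called lower, at -2.68 and -2.80 (adjusted p = 0.000958 and 0.000809), as did leaving out non-deiminated replicate 2 for non-deiminated, at -1.76. Other scalings called the remaining probe sets higher: median centring 1417374_at, at 2.11 and 1.92, and median centring, quantile normalisation and cyclic loess 1417375_at for deiminated, at 2.78, 2.36 and 2.43.

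**Figure D1:**
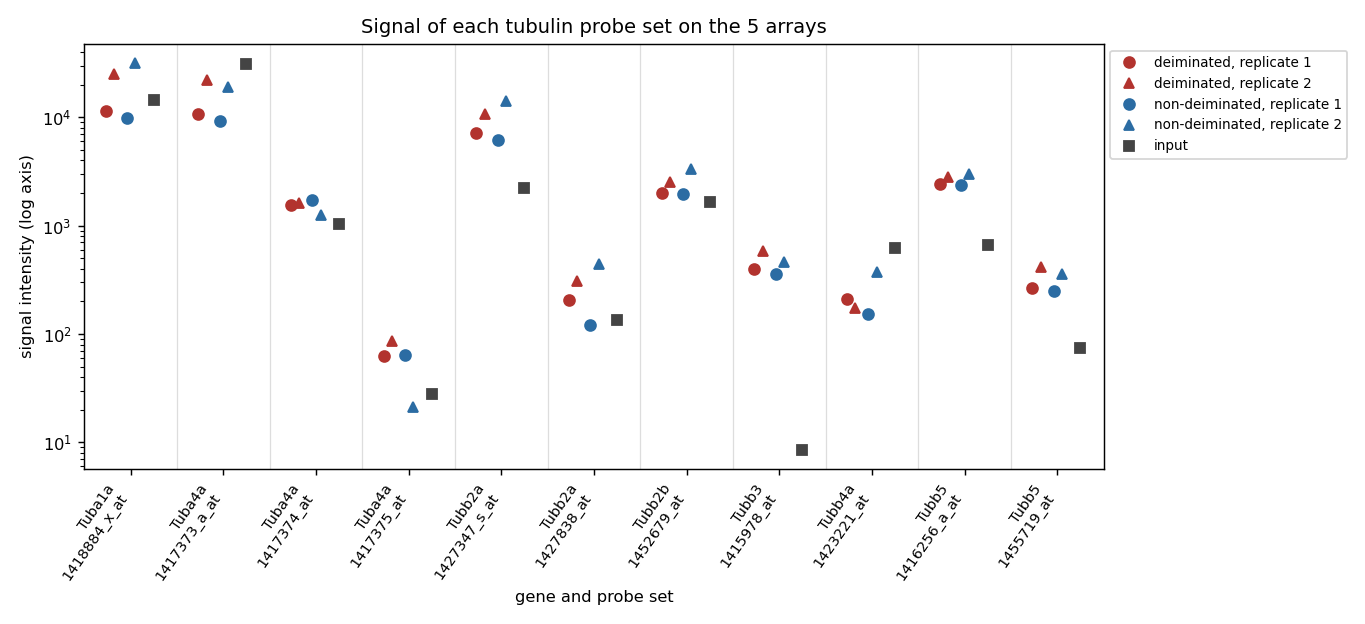
Signal intensity (log axis) of the 11 tubulin probe sets on each array, with deiminated arrays in red, non-deiminated arrays in blue and the input array as a grey square; circles are replicate 1 and triangles replicate 2. Tubb3 read 361 to 579 on the bound arrays against 8.56 on the input array, while Tuba1a had bound arrays on both sides of the input array.

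Of the 11 probe sets, 4 were called higher in deiminated-bound RNA than in input, where 24.9% of all kept probe sets were, and 1 was called lower, where 26.6% were, so that 5 of 11 were called beside 51.5% of all. For non-deiminated-bound RNA the counts were again 4 higher, beside 24.7%, and 1 lower, beside 25.7%, and 5 called beside 50.5%. With cyclic loess between arrays the members split into 3 higher and 4 lower for deiminated and 2 and 2 for non-deiminated, and with median centring into 9 and 0 and 8 and 0. Of all 27022 kept probe sets, cyclic loess called 10803 for deiminated and 10518 for non-deiminated, and median centring 13414 and 12955. Scaled to the hybridisation controls, 0 of the 11 and 0 of all 27022 kept probe sets were called, so a call lost there is not particular to a gene. The median of all kept probe sets moved to 4.32 and 4.38. The main shares stand near those of the whole array, so the number of calls says little about tubulins as a group. The median difference over the 11 probe sets was 0.89 for deiminated and 0.62 for non-deiminated, against -0.21 and -0.19 over all kept probe sets. All 4 bound arrays exceeded the input array for 6 of the 11, as for 39.1% of all, and all 4 lay below it for 2 of the 11, as for 45.6%. Both comparisons use the same single input array, which was given the spread of the others, so their likeness is no separate support.

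**Figure D2:**
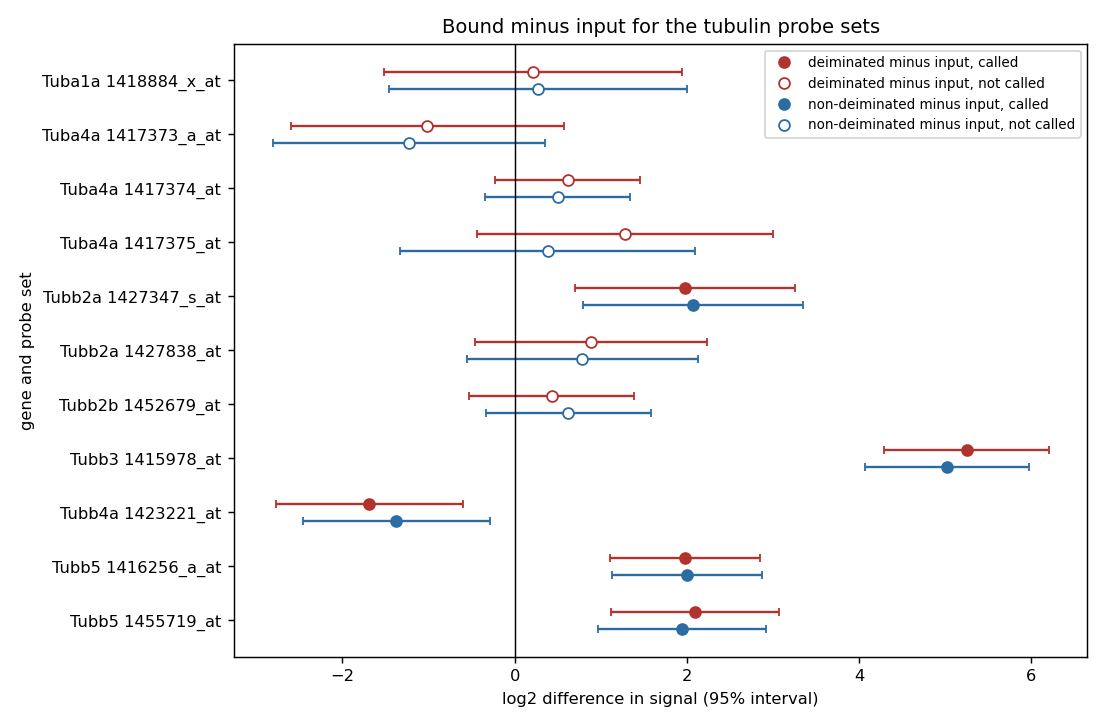
Log2 difference in signal with its 95% interval for each tubulin probe set, deiminated minus input in red and non-deiminated minus input in blue; filled points are called and open ones are not. Tubb3 stands apart at 5.25 and 5.02, both Tubb5 probe sets and Tubb2a 1427347_s_at lie near 2, and Tubb4a is below 0.

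Setting neuron-enriched against general isotypes did not divide the genes. With the brightest probe set for each gene, the 6 neuron-enriched isotypes Tuba1a, Tuba4a, Tubb2a, Tubb2b, Tubb3 and Tubb4a had a median difference with input of 0.32 for deiminated, with a range of -1.69 to 5.25, and Tubb5, the 1 general isotype measured, had 1.97. For non-deiminated the values were 0.45, with a range of -1.38 to 5.02, and 2.0. Only 2 of the 6, Tubb3 and Tubb2a, were above Tubb5, and Tubb2a by a margin within its error. The neuron-enriched median minus Tubb5 was -1.92 and -1.39 on deiminated arrays and -1.98 and -1.13 on non-deiminated arrays, each less the input. Tuba4a and Tubb4a are the least neuronal of the 6 by the background above. Without them, a choice made after seeing the values, the median of the other 4 was 1.2 for deiminated and 1.35 for non-deiminated, and the gap to Tubb5 narrowed to -0.77 and -0.66. This is a description without a test, and its general side is a single gene.

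A ratio of signals within an array does not depend on the factor by which that array was scaled, so these ratios use the signals with no constant added. Relative to Tubb5 1416256_a_at, the signal of Tubb3 was 3.66 and 4.0 log2 higher on deiminated arrays than on the input array, and 3.57 and 3.58 higher on non-deiminated arrays. The input signal behind it, 8.56, lies far under that array's median of 102.3, and with the constant added the values were 3.10 and 3.44, and 3.02 and 3.02. Relative to the same probe set, Tubb4a differed from input by -3.45 and -3.94 on deiminated arrays and by -3.87 and -2.94 on non-deiminated arrays. Tuba4a 1417373_a_at differed by -3.59 to -2.58 over the 4 bound arrays, 1417374_at by -1.91 to -1.11 and 1417375_at by -2.57 to -0.46. Tuba1a differed by -2.40 to -1.08 and Tubb2b by -1.62 to -1.19. The Tubb2a probe sets parted, with 1427838_at at -1.97 to -0.45 and 1427347_s_at at -0.36 to 0.48. The second Tubb5 probe set was at -0.10 to 0.39. With 1 input array no test of these ratios was made.

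Whether deimination changed the binding of tubulin RNAs is the question put by the bound groups against each other. None of the 11 probe sets was called, beside 0% of all kept probe sets (limma, adjusted p = 0.9999 for each), and 0 of the 11 had an unadjusted p under 0.05, against 356 of 27022. The 2 groups overlapped for all 11, while 24.1% of kept probe sets had groups that did not overlap. Tubb3 had a difference of 0.23 ± 0.36 log2 (-0.55 to 1.00), Tubb5 had -0.03 ± 0.33 (-0.74 to 0.68) with 1416256_a_at and 0.15 ± 0.37 (-0.64 to 0.94) with 1455719_at, and Tubb4a had -0.31 ± 0.41 (-1.2 to 0.58). Tubb2b had -0.19 (-0.97 to 0.59), and Tubb2a had -0.09 (-1.14 to 0.96) and 0.10 (-0.99 to 1.2). The widest intervals were those of Tuba1a, -0.06 (-1.48 to 1.36), Tuba4a 1417373_a_at, 0.22 (-1.07 to 1.51), and Tuba4a 1417375_at, 0.90 (-0.50 to 2.30). Differences of 2-fold are therefore not shown to be absent for most of these transcripts. The interval excluded a 2-fold change in either direction for 4 of the 11 probe sets, namely Tuba4a 1417374_at, Tubb2b and both of Tubb5.

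**Figure D3:**
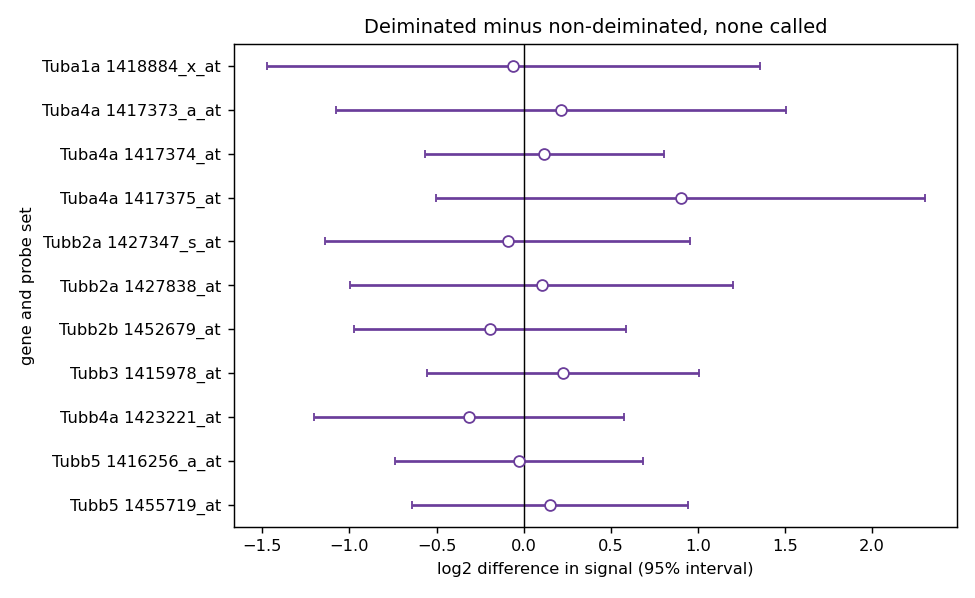
Log2 difference in signal, deiminated minus non-deiminated, with its 95% interval for each of the 11 tubulin probe sets. Every interval includes 0, and the widest belong to Tuba1a and to 2 probe sets of Tuba4a.

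For the brightest tubulins, replicate 2 read higher than replicate 1 in both bound groups. That shared direction, and the counts built on it, hold for the numbering used here. Matching arrays by the protein name in their titles would set the 2 groups in opposite directions. Signal of replicate 2 over replicate 1 was 2.18 in the deiminated and 3.22 in the non-deiminated group for Tuba1a, 2.05 and 2.09 for Tuba4a 1417373_a_at, and 1.5 and 2.29 for Tubb2a 1427347_s_at. It was 1.46 and 1.29 for Tubb3, and 1.15 and 1.28 for Tubb5 1416256_a_at. Tubb4a went opposite ways, with 0.82 in the deiminated and 2.44 in the non-deiminated group. The ratio was above 1 in both groups for 8 of the 11 probe sets (72.7%), against 36.4% of all kept probe sets, whose median ratios were 1.07 and 1.09. Replicate 2 is also the array with the higher hybridisation controls, by 4.03-fold in the deiminated and 7.80-fold in the non-deiminated group.

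The brightest probe sets of the array shared this pattern. Among the 100 brightest kept probe sets, which include Tuba1a and Tuba4a 1417373_a_at, the median ratio was 1.73 and 2.50, and 100% were above 1 in both groups. Among those ranked 101 to 500, which include Tubb2a 1427347_s_at, it was 1.2 and 1.51, with 75.8% above 1 in both. Among those ranked 501 to 2000, which hold Tuba4a 1417374_at, Tubb2b and Tubb5 1416256_a_at, it was 0.97 and 1.03, with 29.3%. The remaining 25022 kept probe sets, which hold the other 5 tubulin probe sets, had 1.08 and 1.09, with 36.0%. Of the 8 tubulin probe sets above 1 in both groups, 3 were among the 500 brightest. The other 5, Tubb2b, both of Tubb5, Tubb2a 1427838_at and Tubb3, lay where 29.3% or 36.0% of probe sets were. Summed oligodendrocyte markers moved likewise, with 29280 and 56660 on deiminated arrays, 23220 and 68240 on non-deiminated arrays and 48660 in input. Mbp led them, with 14068 and 33403 on deiminated arrays, 10834 and 42153 on non-deiminated arrays and 31935 in input. Mag went the other way, with 474 and 278 on deiminated arrays and 551 and 461 on non-deiminated arrays. Summed astrocyte markers rose by less, from 15930 to 20690 and from 16170 to 19660. Neuronal ones went from 17560 to 18860 and from 16930 to 18800. The part of cell type in the tubulin values was not tested.

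**Figure D4:**
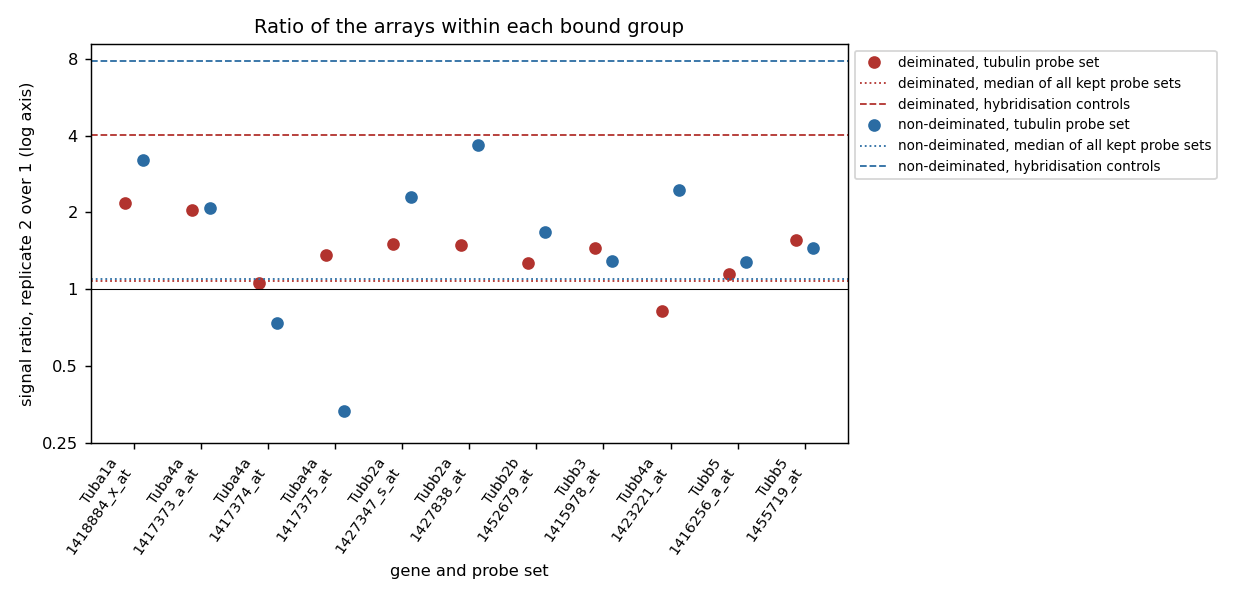
Signal of replicate 2 divided by that of replicate 1 (log axis) for each tubulin probe set, deiminated arrays in red and non-deiminated arrays in blue. Dotted lines are the medians of all kept probe sets, 1.07 and 1.09, and dashed lines the hybridisation controls, 4.03 and 7.80; Tuba1a lies between them in both groups.

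Some probe sets list a member beside a pseudogene or a sequence not told apart from it, and they were left out of the counts. The probe set listing Gm5620 and Tuba1b, 1423846_x_at, read 12100 and 30496 on deiminated arrays, 10202 and 35788 on non-deiminated arrays and 75216 in input. Its differences with input were -1.97 ± 0.90 and -1.98 ± 0.90 (adjusted p = 0.0818 and 0.0820), and its replicate ratios of 2.52 and 3.51 resembled those of Tuba1a. The one listing Gm6682 and Tuba1a, 1433584_at, read 34.3 and 40.6 on deiminated arrays, 16.5 and 65.4 on non-deiminated arrays and 248 in input, and had differences of -2.60 and -2.73 (adjusted p = 0.0164 and 0.0137). The one listing Tubb2a-ps2 and Tubb2b, 1449682_s_at, read 1.46 and 10.1 on deiminated arrays, 0.86 and 17.2 on non-deiminated arrays and 95.2 in input, and lay under the filter.

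Among 12 other tubulin genes listed, 9 had a probe set of their own and 8 of these were kept. For deiminated against input 3 rose, 2 fell and 3 were not called, and for non-deiminated 2 rose, 3 fell and 3 were not called, with medians of 0.04 and 0.50 against 0.10 and 0.11 over all 12941 kept genes. Of those genes, 30.0% were called higher and 23.6% lower for deiminated, and 29.7% and 22.6% for non-deiminated. Tubb4b, a broadly made beta isotype, read 893 and 827 on deiminated arrays, 1147 and 770 on non-deiminated arrays and 186 in input, and rose by 2.18 and 2.31 (adjusted p = 0.000846 and 0.000587). The first of these calls was lost after cyclic loess, at 0.88. Of the other Tubb4b probe sets, 1439416_x_at differed by -4.52 and -5.66 and 1456078_x_at by -5.13 and -5.16, with input signals of 683 and 607. Their bound arrays read 6.54 to 33.3 and 8.05 to 20.6, so both passed the filter only through the input array, and their falls are tied to it. Another kept Tubb4b probe set, 1456470_x_at, was not called, at -0.92 and -0.35. The kept probe sets of Tubb4b thus differed in sign. Tubg2, a gamma-tubulin, which nucleates microtubules, rose by 2.56 and 2.57 (adjusted p = 0.0237 and 0.0242), with 90.6 and 39.4 on deiminated arrays, 92.7 and 38.9 on non-deiminated arrays and 6.73 in input. Its call was lost without replicate 1 of the same bound group, at 1.998 for deiminated and 1.98 for non-deiminated. Tubb1, the beta isotype of platelets, fell by 3.07 and 2.36 (adjusted p = 0.0048 and 0.0182), and Tubb6 1446353_at fell by 3.11 and 2.34 (adjusted p = 0.00622 and 0.0248), the second of which was lost without non-deiminated replicate 1, at -1.76. Both read 18.6 to 62.1 on the bound arrays and about 220 on the input array, where the median of all probe sets was 102.3, and both signs turned with scaling to the hybridisation controls. A second Tubb6 probe set under the filter, 1416431_at, disagreed, with 45.0 and 22.7 on deiminated arrays, 24.8 and 8.83 on non-deiminated arrays and 9.90 in input.

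Cofactors fold new tubulin and assemble the dimer. Of the 7 listed and kept, 3 rose, 0 fell and 4 were not called in each comparison, where 30.0% and 29.7% of all kept genes were called higher. Their medians were 0.80 for deiminated and 0.61 for non-deiminated, against 0.10 and 0.11 over all kept genes. Tbca, which binds beta-tubulin after its release from the chaperonin, rose by 2.46 and 2.34 (adjusted p = 0.000935 and 0.00135). Tbcb, which binds alpha-tubulin, rose by 2.02 and 2.06 (adjusted p = 0.00217 and 0.00199). Cyclic loess took the calls of both genes away, with Tbca at 0.89 and 0.83 and Tbcb at 0.62 and 0.70. Tbcc, which completes the dimer, rose by 3.53 and 3.42 (adjusted p = 0.000395 and 0.000523), and its input signal was 8.94. Tbcd had 0.80 and 0.61 and did not pass (adjusted p = 0.0988 and 0.204), though its deiminated difference of 0.80 was called without either non-deiminated array.

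The gamma-tubulin ring complex and augmin start new microtubules. Of 17 genes listed, 12 were kept. For deiminated 1 rose, 4 fell and 7 were not called, and for non-deiminated 2 rose, 4 fell and 6 were not called, where 23.6% and 22.6% of all kept genes were called lower and 30.0% and 29.7% higher. The medians were -0.78 and -0.93, against 0.10 and 0.11 over all kept genes. Mzt1, a small subunit of the ring complex, rose by 1.96 and 1.91 (adjusted p = 0.00129 and 0.00158), calls lost after cyclic loess, at 0.59 and 0.57. Tubgcp4, a ring subunit, fell by 2.20 and 2.04 (adjusted p = 0.00323 and 0.00515), and the augmin subunits Haus4, with -3.41 and -2.43, and Haus8, with -1.59 and -1.60, fell too. The deiminated fall of Haus8 was not called without deiminated replicate 1, at -1.31. These 3 falls became rises that were not called with scaling to the hybridisation controls, where no kept probe set of the array was called.

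Of 21 tubulin modifying enzymes listed, 18 were kept. For deiminated 3 rose, 8 fell and 7 were not called, and for non-deiminated 4 rose, 6 fell and 8 were not called, beside 30.0% higher and 23.6% lower, and 29.7% and 22.6%, of all kept genes. The medians were -0.80 and -0.20. Ttll7, a polyglutamylase of beta-tubulin, rose by 2.89 and 2.70 (adjusted p = 0.000246 and 0.000434). Agtpbp1, which trims glutamates from tubulin tails and whose loss kills Purkinje cells in mice, rose by 1.77 and 2.11 (adjusted p = 0.00238 and 0.000819). Both calls of Agtpbp1 were lost after cyclic loess, at 0.39 and 0.755. Ttl, which restores the terminal tyrosine of alpha-tubulin, rose by 1.44 and 1.16 (adjusted p = 0.00738 and 0.0217). The deiminated call of Ttl was lost without deiminated replicate 2, at 1.31, after quantile normalisation, and after cyclic loess, at 0.058. Its non-deiminated call was lost after quantile normalisation, without a trend on signal and with the protein name block, and the sign turned after cyclic loess, to -0.20. Agbl5, another deglutamylase, fell, with -1.84 and -2.38 (adjusted p = 0.00692 and 0.0017), a sign that turned with scaling to the hybridisation controls, and its deiminated call was lost without deiminated replicate 1, at -1.43.

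Stathmins hold free tubulin dimers, and severing enzymes cut microtubules. Of 11 listed, 8 were kept. For deiminated 4 rose, 0 fell and 4 were not called, and for non-deiminated 5 rose, 0 fell and 3 were not called, where 30.0% and 29.7% of all kept genes were called higher. The medians were 1.23 and 1.5. Stmn4, a stathmin of neurons, read 2595 and 4146 on deiminated arrays, 2649 and 3294 on non-deiminated arrays and 442 in input, and rose by 2.88 and 2.73 (adjusted p = 0.00024 and 0.000374). Stmn2, a neuronal stathmin of growth cones, rose by 1.55 and 1.24 (adjusted p = 0.0152 and 0.0414), calls lost without deiminated replicate 2, at 1.29, and without non-deiminated replicate 1, at 0.77. Both were also lost without a trend on signal and after cyclic loess, at 0.735 and 0.42. The brightest stathmins, named after their values were seen, lay below input on all 4 bound arrays and were not called. Stmn1 had -1.56 and -1.64 (adjusted p = 0.104 and 0.0901) with an input signal of 44027, and Stmn3 had -0.82 and -0.91 (adjusted p = 0.346 and 0.298). The severing enzyme gene Spast, mutated in hereditary spastic paraplegia, rose by 3.65 and 3.74 (adjusted p = 3.26e-05 and 2.83e-05). Katna1, the catalytic katanin subunit, rose by 2.22 and 1.75 (adjusted p = 0.0161 and 0.0449). Its deiminated call was lost without deiminated replicate 1 or 2, at 2.22 and 2.21, and its non-deiminated call in 8 of 14 alternatives, among them a larger constant, no filter and the protein name block, with differences of 1.3 to 4.87 over all alternatives. In all 5 lists 0 genes were called between deiminated and non-deiminated, beside 0% of all 12941 kept genes.

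**Figure D5:**
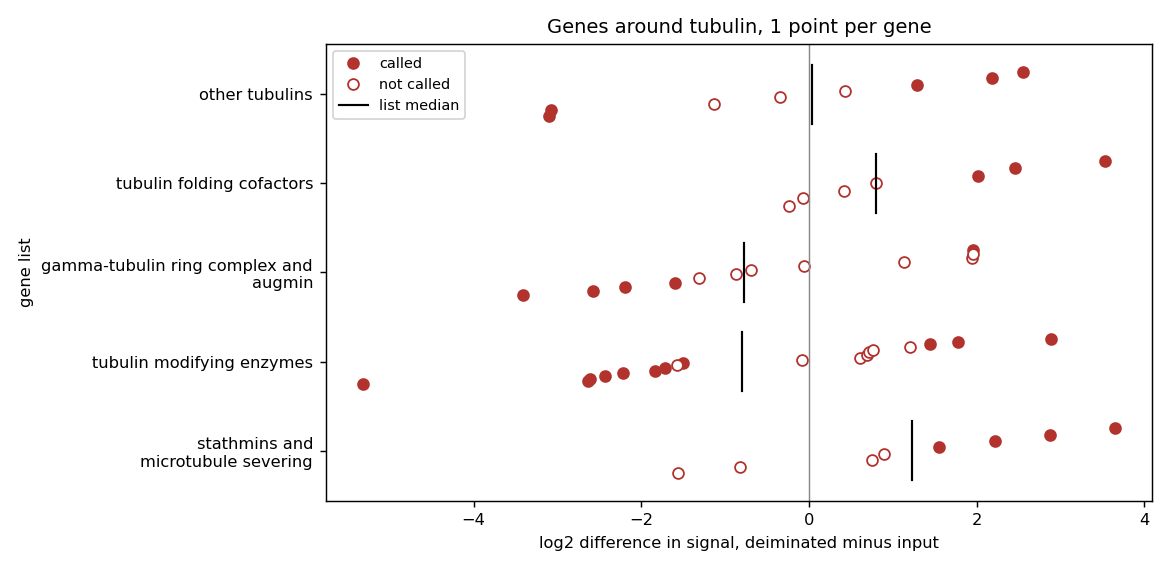
Log2 difference in signal, deiminated minus input, for each kept gene of 5 lists around tubulin, with called genes filled, others open and the list median as a black line. List medians run from -0.80 for the modifying enzymes to 1.23 for stathmins and severing enzymes.

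Over the 5 arrays, the genes whose log2 signals moved most like those of Tubb3 were Fgf14, Zmat3, Huwe1, Rdh14 and Abca3, at distances of 0.26, 0.28, 0.30, 0.33 and 0.37 log2 among 12940 genes. Likeness was the Euclidean distance between signals centred on each gene's mean. Fgf14, which encodes a partner of neuronal sodium channels, read 371 and 585 on deiminated arrays, 360 and 439 on non-deiminated arrays and 6.07 in input. Over so few arrays this likeness is set mainly by the low signal on the input array, and all 5 genes read 6.07 to 22.7 there.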

How the data were processed

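RNA of 5 samples of mouse brain was measured on Affymetrix arrays, 2 with RNA eluted from deiminated MA-Brent-1, 2 from the non-deiminated protein and 1 with input RNA. The deposited table holds 1 intensity per probe set on a linear scale, and the submitters' processing notes name MAS5, with its version not given in the sources used here. Samples were grouped by their descriptions. Gene symbols came from the platform annotation, in which 34945 probe sets had 1 symbol, 932 several and 9160 none, and the Entrez identifiers of all 7 genes matched the RefSeq table. The log2 scale used a pseudocount of 4.18, which is the overall median over 10. Probe sets at or above the 40th percentile of mean log2 signal were kept.

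limma 3.58.1 in R 4.3.3 (lmFit, and eBayes with its trend option) was run over all 27022 kept probe sets and the 3 group means, with 2 residual and 10.91 prior degrees of freedom, and p-values were adjusted by Benjamini-Hochberg. The lone input array borrows its spread from the others. The number of arrays limits the precision. Every probe set of the 8 genes looked for is named. For each list of related genes the brightest probe set, by mean signal, stood for a gene, and the 4 kept genes with the largest moderated t for deiminated minus input are named, as are the 5 genes most like Tubb3. This choice of probe set counts the input array. The members and lists were chosen with earlier results of these data known. Alternatives covered the pseudocount, filter, scaling, variance model, a protein name block and leaving out arrays. Probe and protein sequences were not used here.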

Additional observations from a re-analysis of the deposited data

How the results depend on the processing

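The limits are the 2 arrays per bound group, the single input array, on which every difference with input rests and whose hybridisation controls stand highest, and the scaling between arrays. Sample numbers stand only in the titles that name REFP2, and they match no array across the groups, so no replicate block was fitted. The titles' protein name does pair each deiminated array with a non-deiminated one, and as a block it left the counts of called tubulin probe sets at 5, 5 and 0. For 73 differences of single probe sets, 1095 values under alternatives gave 924 with the same direction and side of the threshold, 94 that lost and 22 that gained a call and 55 whose sign turned. The cause of these changes was not tested. The called count of 5 of 11 tubulin probe sets went to 9 for deiminated against input and 8 for non-deiminated against input after median centring. There 13414 and 12955 of all 27022 kept probe sets were called. Both tubulin counts went to 0 after scaling to the hybridisation controls, where 0 of all kept probe sets were called. The count for deiminated against non-deiminated was 0 in every alternative run. With each bound array left out the counts ran from 4 to 5 and from 5 to 6. The neuron-enriched median minus Tubb5 moved to -0.53 for deiminated and -0.52 for non-deiminated after quantile normalisation and, in an alternative chosen after seeing the data, to -0.77 and -0.66 without Tuba4a and Tubb4a. It stayed within the spread of the arrays in the other alternatives run. For median centring and for leaving out arrays this was fixed in advance. An offset shared by a whole array cancels in this value, and leaving out an array returns the other array of its group or the main value.

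With input as the baseline, values are given for deiminated and then non-deiminated. Scaling to the hybridisation controls, which moved the median of all probe sets to 4.32 and 4.38, turned Tuba4a 1417373_a_at to 4.42 and 4.24, Tubb4a to 3.57 and 3.91, Tubb1 to 1.82 and 2.60, Tubb6 to 1.77 and 2.61, Haus4 to 1.64 and 2.69, Haus8 to 3.47 and 3.51, Tubgcp4 to 2.98 and 3.18 and Agbl5 to 3.44 and 2.93. Cyclic loess turned Tuba1a to -1.45 and -1.30, Tuba4a 1417374_at to -0.83 and -0.91, Tubb2b to -1.08 and -0.84, Tbcd to -0.37 and -0.55, and Ttl to -0.20 for non-deiminated. Quantile normalisation, which moved the median of all probe sets to 0.51 and 0.48, turned Tuba4a 1417374_at to -0.59 and -0.67, Tubb2b to -0.75 and -0.57, and Tuba4a 1417373_a_at to 0.002 for deiminated. Median centring, which moved it to 1.29 and 1.23, turned Tuba4a 1417373_a_at to 0.48 and 0.19 and Tubb4a to 0.042 for non-deiminated.

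With each bound array left out, Tuba1a ran from -0.35 to 0.77 for deiminated and from -0.57 to 1.11 for non-deiminated. For non-deiminated, Tuba4a 1417375_at ran from -0.33 to 1.09 and Tubb2a 1427838_at from -0.14 to 1.71. For deiminated minus non-deiminated, the ranges were -0.90 to 0.78 for Tuba1a, -0.32 to 0.75 for Tuba4a 1417373_a_at, -0.10 to 0.34 for Tuba4a 1417374_at, -0.69 to 0.51 for Tubb2a 1427347_s_at, -0.82 to 1.02 for Tubb2a 1427838_at, -0.57 to 0.18 for Tubb2b, -0.043 to 0.49 for Tubb3, -0.94 to 0.32 for Tubb4a, -0.21 to 0.15 for Tubb5 1416256_a_at and -0.16 to 0.47 for Tubb5 1455719_at. Median centring turned that difference to 0.019 for Tuba1a and 0.050 for Tubb5 1416256_a_at.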
